A study of Mus musculus with 2 samples.

Results

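Granzymes and the other genes of the cytotoxic granule were measured in single cells of the fetal mouse lung that had been sorted as type 2 innate lymphoid cells (ILC2s). The 7 genes described are Gzma, Gzmb, Gzmc, Prf1, Nkg7, Ms4a4b and Lgals3, taken by symbol from the 32285 genes of the expression matrix, and all 7 were found. The members were chosen by their levels and their DEX against PBS differences in earlier results of these cells, so their levels in ILC2-like cells and the difference between treatments there are given as descriptions and support nothing further. Live CD45+ lineage-negative ST2+ cells came from lungs of wild-type C57BL/6J fetuses at gestation day 18. From gestation day 12 the mothers drank water that contained PBS or 1.3 µg/ml dexamethasone (DEX), a glucocorticoid drug. Fetuses were pooled within a litter, with 8 and 9 fetuses in the DEX litters and 5 and 8 in the PBS litters, and each litter carried its own hashtag antibody, so the litter is the replicate and there are 2 per treatment. The hashtag labels and the methods of the study name 2 mothers per treatment, whereas a figure legend gives 1 dam per group. The labels were followed here. The 4 litters were run together in 1 library. Wherever 4 values of a gene are given, they follow the order DEX-1, DEX-2, PBS-1, PBS-2.

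Granzymes are serine proteases that cytotoxic lymphocytes store in granules and deliver into target cells through pores made by perforin, the product of Prf1. NKG7 is a membrane protein of those granules, MS4A4B is a surface protein of lymphocytes, and galectin-3, encoded by Lgals3, is a sugar-binding protein made by many myeloid and epithelial cells. Mast cells and basophils also carry granule proteases, and granzyme B is known in mast cells as well as in natural killer (NK) and T cells. Antibodies against NK1.1, CD3e, CD4, CD8a and the γδ T cell receptor were part of the lineage mixture that the sort excluded.

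The bases before the start sites of the 3 granzyme genes are shown because Gzmb and Gzmc lie close together on chromosome 14 while Gzma lies on chromosome 13, and the levels below separate Gzma from the other two. Each stretch holds the 250 bases before the RefSeq start on build GRCm38.p6, written 5′ to 3′ on the strand of the gene, which is the minus strand in each case. The capitals mark matches, on either strand, to TGTGGT (the Runx core), TGANTCA (AP-1), TGACGTCA (the cyclic AMP response element) and AGAACA (the core read by the glucocorticoid receptor).
Gzma, chr13:113100982-113101231: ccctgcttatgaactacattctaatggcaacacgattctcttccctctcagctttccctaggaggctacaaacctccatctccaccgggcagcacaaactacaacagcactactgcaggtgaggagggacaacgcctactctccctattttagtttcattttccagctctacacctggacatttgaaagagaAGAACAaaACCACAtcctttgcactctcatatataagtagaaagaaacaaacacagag
Gzmb, chr14:56262335-56262584: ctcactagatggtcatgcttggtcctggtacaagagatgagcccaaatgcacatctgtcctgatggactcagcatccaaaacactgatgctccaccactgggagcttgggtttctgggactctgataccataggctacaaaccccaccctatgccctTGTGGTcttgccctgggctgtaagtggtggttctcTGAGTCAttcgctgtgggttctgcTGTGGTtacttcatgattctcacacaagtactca
Gzmc, chr14:56234658-56234907: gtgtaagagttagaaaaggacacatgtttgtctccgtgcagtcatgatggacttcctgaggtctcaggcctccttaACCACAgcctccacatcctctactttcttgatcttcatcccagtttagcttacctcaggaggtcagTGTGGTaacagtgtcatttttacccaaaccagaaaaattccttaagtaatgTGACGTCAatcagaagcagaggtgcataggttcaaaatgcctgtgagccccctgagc

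The Runx core was present before 5 of the 7 members, namely Gzma, Gzmb, Gzmc, Prf1 and Nkg7, and in 14.0% of 32851 RefSeq promoter windows of the same length. The AP-1 letters stood before Gzmb alone among the members (6.75% of windows), from position -58 to -52 relative to the start. The cyclic AMP response element stood before Gzmc alone (1.55% of windows), and the glucocorticoid receptor core before Gzma and Nkg7 (16.1% of windows). Upstream windows were found for 7 of 7 members, and no searched letters were present before Ms4a4b and Lgals3. The RefSeq start used for Lgals3 lies 6109 bases from the GENCODE start, inside the GENCODE span of the gene, and the bases before the GENCODE start were not searched. A match describes the letters in the window and does not show that a protein binds there.

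By the GENCODE annotation of GRCm38, Gzmb (ENSMUSG00000015437) spans chr14:56258838-56262260 and Gzmc (ENSMUSG00000079186) spans chr14:56231441-56234656, both on the minus strand with 5 exons. Gzma (ENSMUSG00000023132) spans chr13:113093825-113100981 on the minus strand. The other 4 lie on the plus strand, with Prf1 at chr10:61297833-61304680, Nkg7 at chr7:43437073-43438249, Ms4a4b at chr19:11443553-11467055 and Lgals3 at chr14:47367751-47386160. Of the 31-base words in the transcripts of Gzmc, 14.8% also occur in Gzme, Gzmg or Gzmd, so its counts are less certain than those of Gzma, Nkg7 and Lgals3, which share no such word with another gene. For Gzmb the share was 1.35% and for Ms4a4b it was 5.20%.

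After hashtag calling 7268 barcodes belonged to a single litter (1737, 1888, 1753 and 1890), with a median of 8026 unique molecular identifiers (UMIs) per cell. Clusters were named from marker genes and built without the members. The ILC2-like cells, 2077 in all, formed 4 clusters and held UMIs of all 13 ILC2 markers, with a mean of 63.6% of cells per marker, and also of all 8 T cell markers, with a mean of 22.7%. The sort also held 2890 mast or basophil-like cells in 4 clusters, as well as B cell-like, endothelial-like, epithelial-like and mesenchymal-like cells. A further 335 cells were grouped after the clusters had been seen, because their subclusters were led by Gzmb and Scin (scinderin, an actin-severing protein). The label of a mast or basophil progenitor was checked on these cells. On average 73.5% of them held a UMI of each shared mast and basophil marker, 34.4% of each mast cell marker, 30.4% of each basophil marker and 30.3% of each haematopoietic progenitor marker, and Mrgprb1 was at 0. Of the 7 NK cell markers 6 were at 0 there. The progenitor share was 21.4% in mast or basophil-like cells and 29.0% in their Mrgprb1- and Mcpt4-led cluster. Those cells were shallower, with median depths of 6668 and 8849 UMIs against 16309. Scaled to a total of 1000000 UMIs, progenitor markers summed to 328, 419, 356 and 343 in the Gzmb- and Scin-led cells. In mast or basophil-like cells they summed to 935, 578, 770 and 906. The check therefore does not show that the Gzmb- and Scin-led cells are progenitors.

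Gzmb was highest in the Gzmb- and Scin-led cells. Its level, in UMIs scaled to a total of 1000000 UMIs of the same cells (CPM), was 4368, 3911, 3443 and 3339 CPM in the 4 litters, a mean of 3765 ± 473 (SD, n = 4 litters). Every litter lay above the highest litter of any other set of cells, but the set was added after Gzmb had been seen to lead it, so its rank for Gzmb is a description and no finding. These 335 cells held 22563 of the 30866 Gzmb UMIs of all singlets, the mast or basophil-like cells held 6369 and the ILC2-like cells 347.

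Mesenchymal-like cells (428 ± 213 CPM, n = 4) and mast or basophil-like cells (290 ± 93.8 CPM, n = 4) came next and overlapped each other. Endothelial-like cells (63.9 ± 80.2 CPM) lay below both without overlap, and ILC2-like cells (20.4 ± 14.6 CPM) overlapped with the endothelial-like cells. The lowest level was in the S100a8-led cluster, with 1 Gzmb UMI in 266 cells. Within the mast or basophil-like cells the pooled level was 483 CPM in the cluster led by Ccl3, Ccl4, Mcpt8 and Prss34 (484 cells), the last 2 being basophil proteases, and 347 CPM in the cluster led by Mcpt2 and H19 (1443 cells). It was 11.2 CPM in the cluster led by Fabp2 and Cma1 (810 cells) and 2.87 CPM in the cluster led by Mrgprb1 and Mcpt4 (153 cells), which are genes of mature connective tissue mast cells.

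The Gzmb signal of the non-haematopoietic classes came from few cells. In mesenchymal-like cells 27 of 197 cells held all 951 Gzmb UMIs, and 23 of those 27 (85.2%) also held a UMI of a mast or basophil marker, against 51.8% of the mesenchymal-like cells without Gzmb. In endothelial-like cells this was 10 of 11 cells with Gzmb (90.9%) against 35.4%, and in epithelial-like cells 13 of 14 (92.9%) against 38.3%. Cells with Gzmb were also deeper, with a median of 17237 UMIs against 8815 in the mesenchymal-like class. Doublets of cells from the same litter were not removed, and the part of such doublets in these values was not tested. In ILC2-like cells 28 of 65 cells with Gzmb (43.1%) held a mast or basophil marker UMI, against 33.5% of those without.

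Gzma showed another distribution. Its mean was highest in ILC2-like cells, at 94.3 ± 51.6 CPM (n = 4). They overlapped with mesenchymal-like cells at 70.6 ± 78.8 CPM, where 4 cells held all 143 UMIs. Without 15 ILC2-like cells that held 2 or more NK cell markers, described below, Gzma in ILC2-like cells was 40.7, 71.0, 32.0 and 40.3 CPM in the 4 litters. Only 1 Gzma UMI was found in the 2890 mast or basophil-like cells. No Gzma UMI was found in B cell-like cells, which allows up to 3.97 CPM, or in the Elane- and Car1-led cells, which allows up to 0.549 CPM (counting error only, 3 counts of the total).

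Gzmc followed Gzmb more than Gzma. Its mean was 47.3 ± 43.6 CPM in mesenchymal-like cells, where 3 cells held all 97 UMIs, 46.1 ± 29.0 CPM in the Gzmb- and Scin-led cells, 26.2 ± 17.7 CPM in mast or basophil-like cells and 1.66 ± 0.945 CPM in ILC2-like cells (n = 4 each). The cluster led by Ccl3, Ccl4, Mcpt8 and Prss34 had 62.9, 220, 127 and 103 CPM in the 4 litters. The Mcpt2- and H19-led cluster had 4 Gzmc UMIs in all, while 9.48 to 17.3% of its cells per litter held Gzmb. Gzmc thus overlapped Gzmb in some mast or basophil-like cells and not in others.

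**Figure D1:**
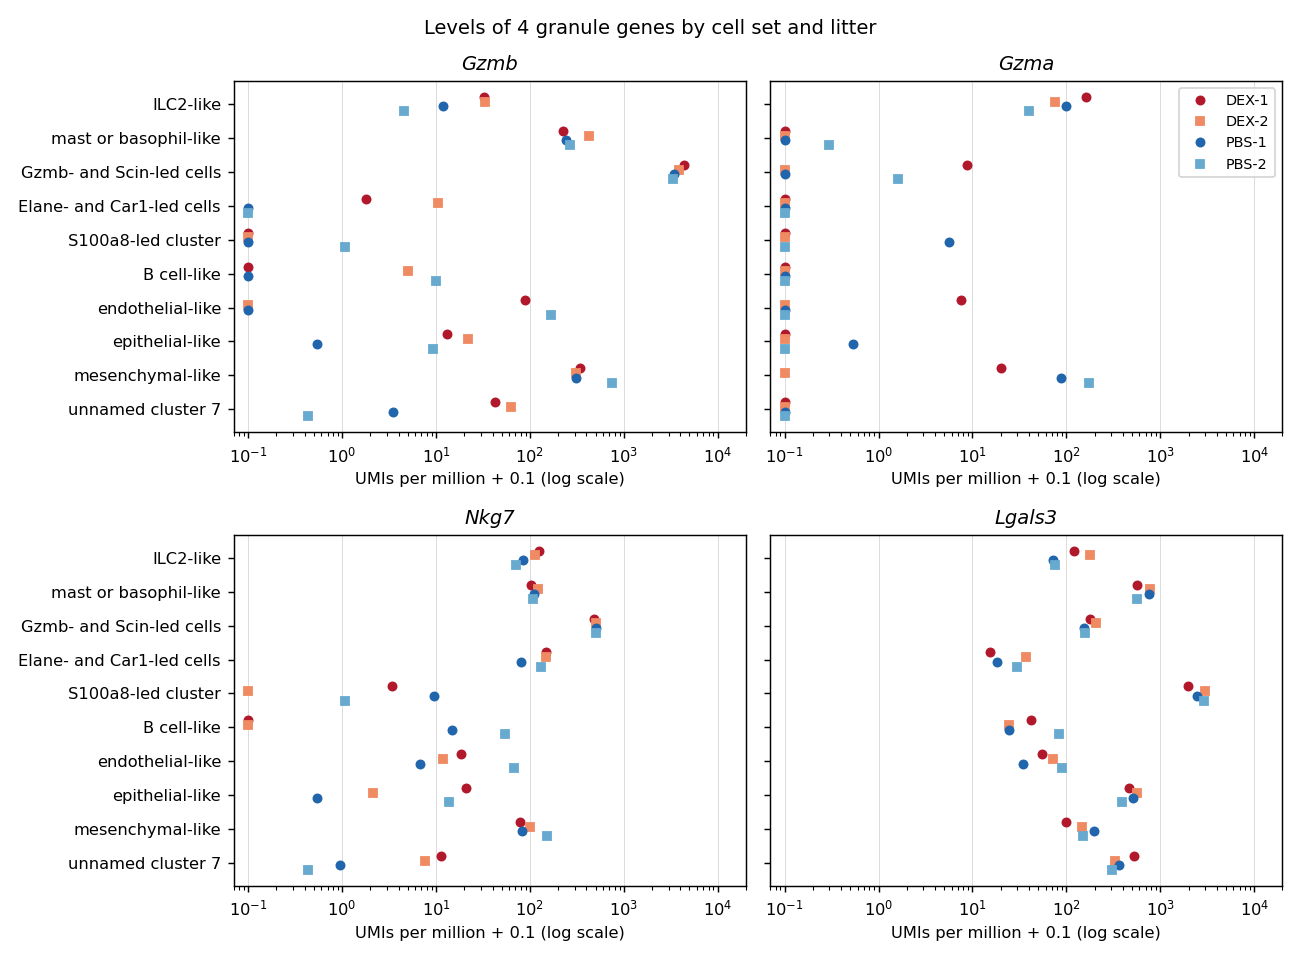
Levels of Gzmb, Gzma, Nkg7 and Lgals3 in 10 sets of cells; the x axis is CPM plus 0.1 on a log scale and each point is 1 litter, so a point at the left edge has no UMI. The 4 litters of the Gzmb- and Scin-led cells lie between 3339 and 4368 for Gzmb, Gzma is spread from 40.3 to 163 in ILC2-like cells, and Lgals3 is highest in the S100a8-led cluster.

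Perforin mRNA was scarce everywhere. Prf1 was highest in the Gzmb- and Scin-led cells, at 7.60 ± 1.43 CPM (n = 4), followed by B cell-like cells at 2.97 ± 3.53 CPM from 2 UMIs, ILC2-like cells at 2.76 ± 1.27 CPM and mast or basophil-like cells at 2.02 ± 1.62 CPM. In the Gzmb- and Scin-led cells 39 of 335 cells (11.6%) held a Prf1 UMI, beside 272 of 335 (81.2%) with Gzmb. No Prf1 UMI was found in endothelial-like cells, which allows up to 0.657 CPM, or in mesenchymal-like cells, which allows up to 1.29 CPM.

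Nkg7 was found in many sets of cells. The Gzmb- and Scin-led cells had 484, 502, 511 and 511 CPM in the 4 litters, above every other set without overlap. The Elane- and Car1-led cells (127 ± 31.4 CPM), mast or basophil-like cells (111 ± 8.84 CPM), mesenchymal-like cells (103 ± 34.2 CPM) and ILC2-like cells (98.2 ± 24.9 CPM) overlapped one another in that order. ILC2-like cells lay above endothelial-like cells (26.2 ± 28.3 CPM) in every litter. Among the Elane- and Car1-led cells 74.8% held an Nkg7 UMI. Of these cells 201 formed a subcluster led by Gm15915, Car1 and Muc13, with a pooled Nkg7 level of 122 CPM. Only 9 formed the subcluster led by Elane, Prtn3 and Mpo, with 264 CPM.

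Ms4a4b was highest in ILC2-like cells, at 23.7 ± 10.2 CPM (n = 4), overlapping with mast or basophil-like cells at 11.1 ± 4.32 CPM. Among the mast or basophil-like cells it was at 48.1, 62.3, 63.1 and 43.9 CPM in the 4 litters of the cluster led by Ccl3, Ccl4, Mcpt8 and Prss34, and at no more than 1.61 CPM in any litter of the other 3 clusters. Lgals3 was highest outside the lymphoid cells. The S100a8-led cluster, which carries neutrophil and monocyte transcripts, had 2592 ± 464 CPM, mast or basophil-like cells had 666 ± 114 CPM, epithelial-like cells 482 ± 74.1 CPM and ILC2-like cells 112 ± 50.3 CPM.

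Genes with a like pattern were ranked by Pearson's r of log2(CPM + 1) over 56 sums of cluster by litter, among 10763 genes with a mean of at least 5 CPM. The sums share their library and differ in depth, and each r is a description. For Gzmb the nearest were Scin (0.81), Nkg7 (0.76), Ssbp2 (0.76), Angpt1 (0.74) and Sirt3 (0.73). For Gzma they were Cd163l1 (0.93), Cd3e (0.90) and Il2rb (0.89), the last coding for a receptor chain shared by IL-2 and IL-15. Gzmc was nearest to Mpo (0.76), Spns3 (0.72) and Prtn3 (0.70), of which Mpo and Prtn3 code for neutrophil granule enzymes. Nkg7 was nearest to Ikzf2 (0.82), Adck5 (0.80) and Il13 (0.80), Ms4a4b to Cd7 (0.87), Pgk1 (0.75) and Klrb1b (0.75), and Lgals3 to Rnh1 (0.84) and Ftl1 (0.78). Between members r was 0.69 for Gzmb with Gzmc, 0.05 for Gzmb with Gzma and -0.40 for Gzma with Lgals3, and Prf1 was below the level needed.

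Within ILC2-like cells the granule genes were spread unevenly over cells. Of 2077 cells 603 (29.0%) held an Nkg7 UMI and 352 (16.9%) an Lgals3 UMI, against 144 (6.93%) for Ms4a4b, 86 (4.14%) for Gzma, 65 (3.13%) for Gzmb, 46 (2.21%) for Prf1 and 9 (0.433%) for Gzmc. The 10 cells with most Gzma held 64.3% of its 1652 UMIs, and the 10 with most Gzmb held 61.4% of its 347 UMIs. The 10 cells with most Nkg7 held 8.39% of its UMIs. Only 8 cells held UMIs of both Gzma and Gzmb.

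**Figure D2:**
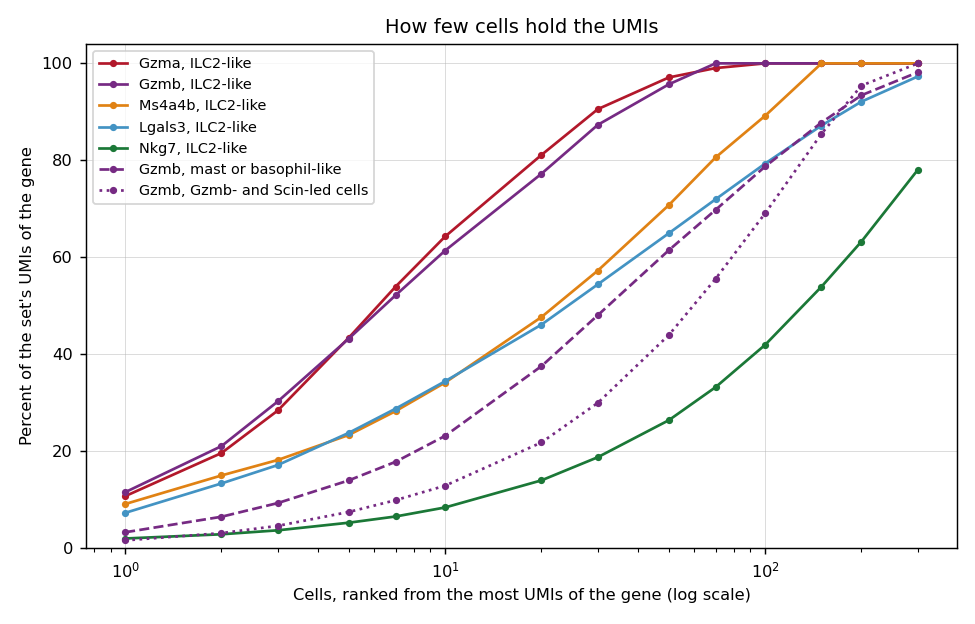
Share of a gene's UMIs (y axis, percent) held by the cells with most UMIs of it (x axis, number of cells on a log scale), in ILC2-like cells (solid lines) and, for Gzmb, in mast or basophil-like cells (dashed) and in the Gzmb- and Scin-led cells (dotted). In ILC2-like cells 10 cells hold 64.3% of Gzma and 61.4% of Gzmb but 8.39% of Nkg7, whereas in the Gzmb- and Scin-led cells 10 cells hold 12.9% of Gzmb.

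Some of these cells carried NK cell transcripts. All 7 NK cell markers had a UMI in ILC2-like cells, and their summed level was 27.2, 10.5, 14.0 and 3.84 CPM in the 4 litters. In 15 cells (8, 3, 3 and 1 in the same order) at least 2 NK cell markers were found, and 7 of the 15 held a UMI of Gata3, the transcription factor of ILC2s. These 15 cells held 52.2% of the Gzma UMIs, 29.4% of Gzmb, 20.1% of Ms4a4b, 8.56% of Nkg7 and 1.77% of Lgals3. The 5 cells with most Gzma, with 121 to 177 UMIs each, were all among the 15, all held Gzmb and none held Gata3, and 3 came from DEX-1 and 2 from PBS-1. The log2 fold changes of the members in ILC2-like cells are therefore also given without the 15 cells, a choice made after seeing the data.

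Of the 2 largest ILC2-like clusters, the Tcrg-C1- and Cxcr6-led cells (791 cells), which also express Ccl5, had the higher means of the granule genes. Gzmb there was 49.3, 76.3, 29.2 and 7.52 CPM in the 4 litters, against 5.86, 3.44, 0.683 and 4.12 CPM in the Calca- and Hilpda-led cells (864 cells). Nkg7 was 180, 197, 175 and 102 CPM in the first cluster and 30.1, 41.3, 13.7 and 24.2 CPM in the second. Ms4a4b was 49.8, 62.7, 52.8 and 24.9 CPM in the first, and 2 UMIs were found in the second. Lgals3 was 182, 348, 147 and 150 CPM in the first and 32.6, 29.2, 28.7 and 11.8 CPM in the second. In these 3 genes and these 2 clusters every litter of the first lay above every litter of the second. For Gzma the first had 224, 62.7, 241 and 63.0 CPM, and the second 71.1, 30.1, 13.7 and 14.1 CPM, so that they overlapped. The Ube2c- and Birc5-led cluster (393 cells) overlapped the first, with 79.0 to 129 CPM for Nkg7 and 43.6 to 159 CPM for Gzma over litters. Pooled Gzma was highest in the smallest ILC2-like cluster (29 cells), at 499 CPM.

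In ILC2-like cells of DEX litters Gzmb was higher than in PBS litters. The level was 32.0, 33.5, 11.7 and 4.41 CPM in the 4 litters, which is a log2 fold change of 2.10 ± 0.27 (SE). The DEX litters did not overlap with the PBS litters, and the PBS litters differed from each other more than the DEX litters did. Because the values are sums over cells, fewer cells with a gene and less of its RNA per cell cannot be told apart in them. Without the 15 cells with NK cell markers the levels were 13.6, 33.8, 8.19 and 4.42 CPM, with a log2 fold change of 1.93 ± 0.38, so DEX-1 then lay closer to PBS-1 than to DEX-2.

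For Gzma the 4 litters had 163, 74.8, 99.5 and 40.3 CPM. The groups overlapped, and the log2 fold change was 0.83 ± 0.33. Without the 15 cells Gzma was 40.7, 71.0, 32.0 and 40.3 CPM, with a log2 fold change of 0.61 ± 0.21. Gzmc was at 1.27, 2.37, 0.508 and 2.49 CPM, from 30 UMIs in all, with a log2 fold change of 0.13, or 0.15 without the 15 cells. Prf1 was at 3.61, 3.69, 2.79 and 0.959 CPM, from 47 UMIs, and its log2 fold change was 1.04 ± 0.49, or 0.97 without the 15 cells.

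Nkg7 was 125, 113, 85.3 and 70.2 CPM in the 4 litters, a log2 fold change of 0.63 ± 0.10. It is also on the list of genes that the study itself drew from these cells for DEX exposure. Ms4a4b was 32.5, 31.1, 20.3 and 10.7 CPM, a log2 fold change of 1.08 ± 0.22. Lgals3 was 121, 180, 72.1 and 75.2 CPM, a log2 fold change of 1.03 ± 0.15. In these 3 genes each DEX litter was higher than either PBS litter. Without the 15 cells the log2 fold changes of Nkg7, Ms4a4b and Lgals3 were 0.54, 1.00 and 1.01.

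The make-up of the ILC2-like cells also differed between litters. All 7 markers shared by mast cells and basophils had a UMI there. They summed to 176, 204, 147 and 121 CPM and were higher in each DEX litter than in either PBS litter. The mast cell markers overlapped between treatments, with the lowest sum in DEX-1 (265 CPM) and the highest in DEX-2 (367 CPM). The basophil markers, at 11.5, 15.3, 12.4 and 9.02 CPM, also overlapped. In cells without a mast or basophil UMI the log2 fold change was 2.45 for Gzmb, 0.48 for Nkg7, 0.91 for Ms4a4b and 1.26 for Lgals3. The Tcrg-C1- and Cxcr6-led cluster made up 43.0, 38.2, 34.4 and 36.3% of the ILC2-like cells, and within it Gzmb, Nkg7 and Lgals3 were higher in each DEX litter while Ms4a4b overlapped. The part of these shares in the differences was not tested.

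**Figure D3:**
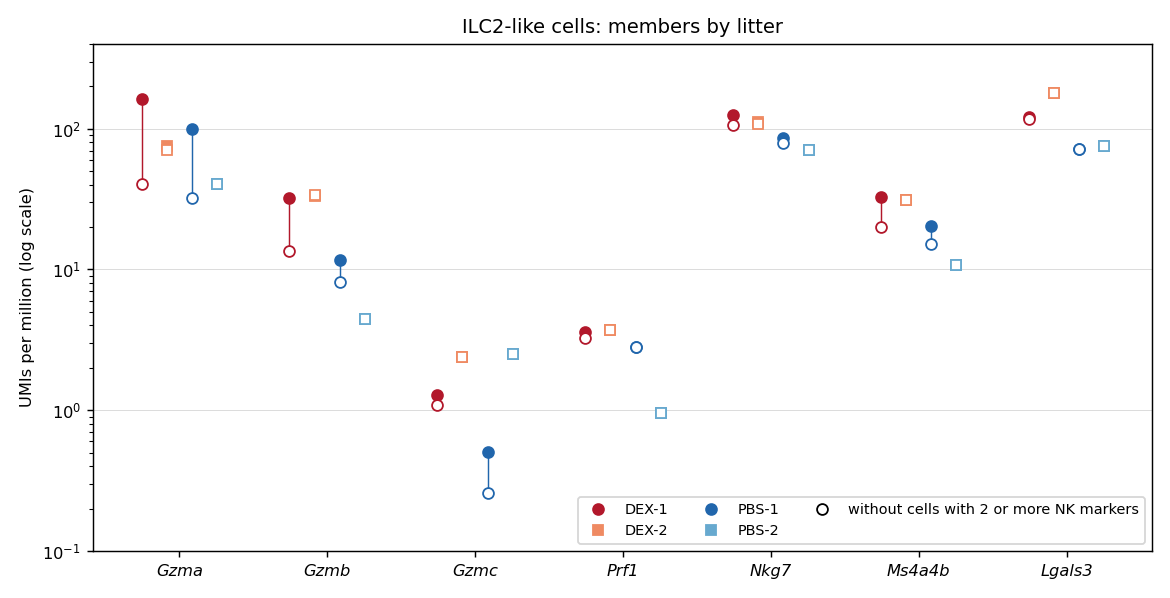
The 7 members in ILC2-like cells, in CPM on a log scale, with 1 filled point per litter and an open point for the same litter without the 15 cells that held 2 or more NK cell markers. Gzma in DEX-1 moves from 163 to 40.7 and Gzmb in DEX-1 from 32.0 to 13.6, while Nkg7 and Lgals3 stay close to their filled points.

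Of the 7 members, 4 (Gzmb, Nkg7, Ms4a4b and Lgals3) passed an adjusted p of 0.05 and were higher in DEX litters, by edgeR's quasi-likelihood test with Benjamini-Hochberg adjustment. Of all 10646 genes tested 2.33% passed in either direction, and 1.11% passed and were higher in DEX litters. In 5 of the 7 members each DEX litter was higher than either PBS litter, and the same held for 20.4% of all genes tested. The members were chosen with this contrast in view, so these counts describe them and say nothing more about them.

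To set shares side by side at equal depth, every cell was thinned to 2000 UMIs, which left out 26 shallower cells. Of the ILC2-like cells, 2.55% (95% Wilson interval 1.52 to 4.23) and 2.88% (1.69 to 4.87) held Gzmb in the DEX litters, beside 1.24% (0.571 to 2.68) and 0.706% (0.275 to 1.80) in the PBS litters. The intervals cover counting error only. The groups did not overlap, and their means were 1.74 percentage points apart. Without thinning the shares were 4.52, 4.18, 2.04 and 1.90%. In B cell-like cells, taken as cells that should lack Gzmb, 0 of 185 thinned cells held it, which allows a share of up to 1.62%. Without thinning their shares were 0, 1.75, 0 and 1.85%, from 1 cell each in DEX-2 and PBS-2, which is near the unthinned PBS shares of ILC2-like cells. The B cell-like cells had a median of 3528 UMIs per cell before thinning, against 7180 in ILC2-like cells.

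In the 432 cycling ILC2-like cells Gzmb was 59.9, 17.3, 8.27 and 1.54 CPM in the 4 litters, and in the 1645 that were not cycling it was 17.0, 41.7, 13.4 and 6.13 CPM. In each, both DEX values exceeded both PBS values, while the order of the DEX litters differed. Lgals3 was 103, 143, 39.9 and 57.5 CPM in cycling cells and 130, 198, 88.6 and 85.8 CPM in the others, again without overlap.

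The 37 ILC2-like cells that kept a Gzmb UMI after thinning (14, 13, 6 and 4 in the 4 litters) were set against the other ILC2-like cells of the same litters. They held 286512 UMIs in all, which allows a gene at 0 in them up to 10.5 CPM. Of these cells 28 held Gata3, 26 belonged to the Tcrg-C1- and Cxcr6-led cluster and 5 held 2 or more NK cell markers. Of 9788 genes tested 1.85% passed an adjusted p of 0.05, 65 higher and 116 lower in the cells with Gzmb. The median log2 fold change of all genes was -0.22 under this scaling and -0.05 with RLE size factors, under which 85 genes were higher and 71 lower. The main differences below kept their direction under both scalings.

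Cd7, which codes for a surface molecule of T and NK cells, was higher in the cells with Gzmb, at 529, 190, 869 and 101 CPM against 34.2, 31.2, 32.2 and 10.8 CPM in the cells without it. This is a log2 fold change of 3.55 ± 0.29, and 3.32 without the cells with NK cell markers. Tcf7, a transcription factor of lymphoid progenitors, had 130, 49.9, 217 and 474 CPM against 32.0, 36.6, 26.3 and 20.1 CPM (log2 fold change 2.29 ± 0.38). Il18r1, a chain of the IL-18 receptor, had 156, 110, 265 and 304 CPM against 51.8, 47.7, 34.2 and 32.1 CPM (1.89 ± 0.35). Cst7, which codes for cystatin F, an inhibitor of the proteases that activate granzymes, was higher by 2.18 ± 0.59 and Cd163l1 by 1.95 ± 0.35 on the log2 scale. These 5 genes also passed without the cells with NK cell markers. The other named genes, Sept4, Ms4a6b, Ifitm2 and Epsti1, were higher in all 4 litters but did not pass without those cells.

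Ctla2a and Ctla2b, which code for inhibitors of cathepsin-like proteases, were lower in the cells with Gzmb. Ctla2a had 78.1, 319, 386 and 33.8 CPM against 1709, 1824, 2167 and 1144 CPM, a log2 fold change of -3.41 ± 0.23. Ctla2b was found in DEX-2 only, at 20.0 CPM, against 74.4 to 140 CPM in the cells without Gzmb. Alox5ap, needed for leukotriene synthesis, was at 8.68, 0, 0 and 0 CPM against 29.4, 61.3, 74.1 and 84.0 CPM. Ebi3, a subunit of IL-27 and IL-35, was found in PBS-1 only, at 48.3 CPM, against 52.0 to 72.6 CPM. Thsd4 and Apbb2 had UMIs in 1 litter each. Ints8, the mitotic genes Aurka and Bora, and Il17a had no UMI in the cells with Gzmb. All 20 genes named by this comparison had an adjusted p of 0.0413 or less in edgeR, on sums to which few cells contribute, but with RLE size factors Aurka (0.0622), Bora and Il17a (0.0733 each) did not pass.

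Of the 6 other members 4 (Gzma, Nkg7, Ms4a4b and Lgals3) passed and were higher in the cells with Gzmb, beside 0.664% of all genes tested, and since the members had been chosen with their co-expression in view this count is a description. Nkg7, Ms4a4b and Lgals3 were higher in 4 of 4 litters. Nkg7 had 521, 200, 772 and 203 CPM against 115, 110, 78.0 and 69.7 CPM, and Lgals3 had 538, 299, 290 and 846 CPM against 110, 177, 70.0 and 71.1 CPM. Ms4a4b had 174, 49.9, 555 and 33.8 CPM against 29.0, 30.6, 14.7 and 10.6 CPM, with a log2 fold change of 2.71, or 0.82 without the cells with NK cell markers. Gzma had 3930 CPM in DEX-1 and 6419 CPM in PBS-1 and none in the other litters, as had Klrc1, an NK cell receptor, at 234 and 265 CPM. Of the cells with Gzmb, those with 2 or more NK cell markers lay in the same litters, 3 in DEX-1 and 2 in PBS-1. The 5 ILC2-like cells with most Gzma, which held 717 UMIs of it, came from these litters and had such markers. No value for Gzma without these cells is given here.

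In mast or basophil-like cells no member passed the test between treatments. Gzmb was 223, 428, 242 and 268 CPM in the 4 litters, a log2 fold change of 0.37 ± 0.27 (edgeR, adjusted p = 0.9998). DEX-2 was the highest, and the groups overlapped. Nkg7 was 102, 123, 111 and 107 CPM (0.06 ± 0.12) and Lgals3 was 571, 772, 756 and 564 CPM (0.04 ± 0.19), both also overlapping. Prf1 was 1.17, 0.638, 4.30 and 1.97 CPM, a log2 fold change of -1.78 ± 0.61 with an adjusted p of 0.9998. Of 11055 genes tested 0 passed (0.0%) in edgeR, where 450 had an unadjusted p under 0.05, and 6 passed in DESeq2. Of the 6 members tested none passed. Gzma had too few UMIs.

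The Mcpt2- and H19-led cluster was the mast or basophil-like cluster with most Scin, at 36.2 CPM. Its Gzmb level was 249, 533, 241 and 314 CPM, a log2 fold change of 0.52 ± 0.28 (edgeR, adjusted p = 0.935). The share of its cells with Gzmb after thinning was 7.95, 12.3, 5.94 and 10.4%, with overlapping groups (exact permutation p = 0.667, two-sided, 2 against 2 litters, in which 0.333 is the smallest possible). None of its 3 tested members passed, and of all 10239 genes 0.0% passed in edgeR, with 575 at an unadjusted p under 0.05 and 7 in DESeq2. The DEX difference in this cluster against that in the other mast or basophil-like cells was 0.39 ± 0.25 for Gzmb (adjusted p = 1.0).

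In the Gzmb- and Scin-led cells Gzmb and Gzmc were higher in both DEX litters without passing the test, and Gzma, at 8.56, 0, 0 and 1.49 CPM, was not tested. Gzmb (4368, 3911, 3443 and 3339 CPM) had a log2 fold change of 0.31 ± 0.08 (edgeR, adjusted p = 0.397), and Gzmc, at 79.9, 56.5, 12.0 and 35.9 CPM, had 1.46 ± 0.33 (adjusted p = 0.367). Lgals3 was 179, 206, 156 and 158 CPM (0.33 ± 0.14, adjusted p = 0.928). Ms4a4b, at 5.71, 6.37, 12.8 and 8.22 CPM, and Nkg7 were lower in both DEX litters, with log2 fold changes of -0.73 ± 0.44 and -0.02 ± 0.11. Litters of the treatments did not overlap in 5 of 5 tested members (34.1% of all genes tested), 3 of which were higher with DEX (15.0% of all genes), and of 8571 genes 0.0117% passed. Gzmb UMIs per cell had medians of 56, 67, 38 and 32 in the 4 litters, and a highest value of 359. The median depth of these cells was 14245, 19542, 16352 and 16205 UMIs.

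The share of Gzmb- and Scin-led cells with a Gzmb UMI after thinning was 82.8, 74.6, 80.0 and 78.2%, with overlapping groups (exact permutation p = 1.0, two-sided). In the same cells mast cell markers summed to 4586, 9289, 10793 and 10072 CPM in the 4 litters, lower in each DEX litter than in either PBS litter. The same held for the shared mast and basophil markers (10329, 10729, 12749 and 11331 CPM), the basophil markers (381, 220, 403 and 401 CPM) and the ILC2 markers (1026, 945, 1106 and 1202 CPM), and the part of these in the granzyme values was not tested. The DEX difference in Gzmb against that in the mast or basophil-like cells was 0.01 ± 0.24 (log2, adjusted p = 1.0). No member passed in that comparison, in which 0.0179% of 11182 genes passed.

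**Figure D4:**
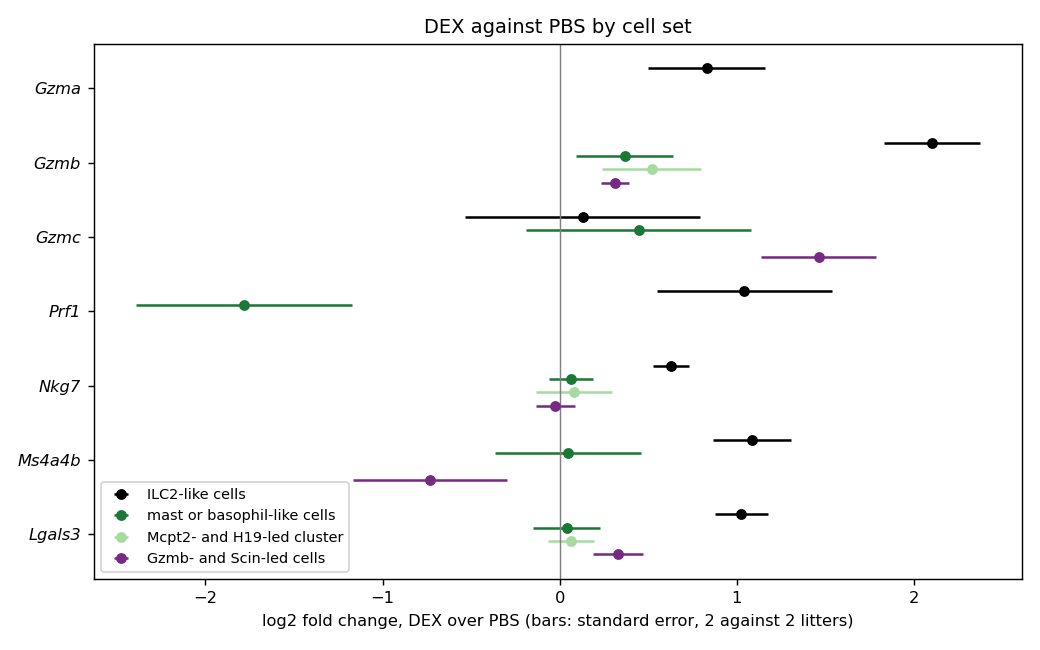
Log2 fold changes of the members, DEX over PBS, with their standard errors (2 against 2 litters) in ILC2-like cells, mast or basophil-like cells, the Mcpt2- and H19-led cluster and the Gzmb- and Scin-led cells; a member without a point was not tested in that set. Gzmb is at 2.10 in ILC2-like cells and between 0.31 and 0.52 in the other sets, and the ILC2-like values are those by which the genes were chosen.

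In the other classes that were fitted no tested member passed. Of the 7 members 0 were tested in B cell-like, 3 in endothelial-like, 3 in epithelial-like and 5 in mesenchymal-like cells. In epithelial-like cells Gzmb was 13.1, 21.7, 0.434 and 9.30 CPM (log2 fold change 1.88 ± 0.67, edgeR, adjusted p = 0.868). In mesenchymal-like cells Gzmb was 345, 309, 313 and 746 CPM (-0.70 ± 0.36) and Gzma 19.9, 0, 88.3 and 174 CPM (-3.63 ± 0.74), each with an adjusted p of 0.999, and in both genes few cells held the UMIs. The share of all genes that passed was 0.213% in B cell-like, 0.0% in endothelial-like, 0.0276% in epithelial-like and 0.0% in mesenchymal-like cells. The Elane- and Car1-led cells, the S100a8-led cluster and an unnamed cluster of 333 cells had no fit. In the unnamed cluster Gzmb was 52.7 ± 15.3 CPM (SD) in DEX litters and 1.87 ± 2.16 CPM in PBS litters, with UMIs in 10 cells. In the S100a8-led cluster the groups overlapped, at means of 0 and 0.491 CPM.

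The rest of the granule machinery was examined with 62 genes in 8 lists, which were drawn up with earlier results known. In ILC2-like cells 41 of the 62 had enough UMIs, and 2 passed, Tyrobp and Serpinb6b, both higher in DEX litters, beside 1.11% of all genes. The median log2 fold change was 0.0077 over the 41 and 0.0032 over all genes. Tyrobp, an adaptor of activating NK cell and myeloid receptors, was 42.2, 25.6, 13.5 and 8.25 CPM in the 4 litters, a log2 fold change of 1.70 ± 0.25 (edgeR, adjusted p = 0.00269), and 1.32 without the cells with NK cell markers (adjusted p = 0.0288). Serpinb6b, a serpin of the family that inhibits granule proteases, was 42.4, 43.0, 27.7 and 25.7 CPM, a log2 fold change of 0.69 ± 0.13 (adjusted p = 0.0147), and 0.67 without those cells (adjusted p = 0.0204).

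None of the 8 granule content and maturation genes passed (5 with a positive and 3 with a negative log2 fold change), nor any of the 9 genes of granule transport and release (2 and 7). Srgn, the proteoglycan core of the granule, was 1996, 2138, 1985 and 1730 CPM (0.17 ± 0.08), and Rab27a, a GTPase of granule docking, was 17.8, 17.4, 25.9 and 22.8 CPM (-0.45 ± 0.16). Of the 5 granzyme inhibitors 3 were tested and 1 passed, with a median of 0.41 over the 3. Of 11 NK cell receptors, adaptors and death ligands 7 were tested and 1 passed, with a median of 1.03. This median includes the 15 cells with 2 or more NK cell markers, 8 of them from DEX-1, and is not given without them. Klrk1 is in this list and is also an NK cell marker. The NK cell markers summed to 27.2, 10.5, 14.0 and 3.84 CPM with the 15 cells and to 2.16, 5.32, 3.59 and 3.26 CPM without them. Of 8 cytotoxic transcription factors 5 were tested and none passed, and Tbx21 and Eomes, which drive the NK cell programme, had too few UMIs. None of 4 tested cytokines and chemokines and none of 5 tested Ms4a and galectin relatives passed.

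Ccl5, a chemokine of cytotoxic cells, was 80.2, 101, 109 and 32.6 CPM (0.40 ± 0.34), and Ifng was 19.1, 5.27, 5.59 and 2.69 CPM (1.67 ± 0.49), neither passing. The other granzyme genes were almost absent from ILC2-like cells. Gzmd, Gzmg and Gzmn had no UMI, and Gzme, Gzmf, Gzmk and Gzmm had at most 4.74 CPM in any litter. In mast or basophil-like cells 37 of the 62 genes were tested and none passed, with a median of -0.0014, and in the Gzmb- and Scin-led cells none of 31 passed, with a median of 0.06.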

How the data were processed

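Single-cell RNA was measured with a 10x Genomics 5′ kit in 1 library that held 4 hashtagged litters. Per the submitters' processing notes, Cell Ranger 7 and the build mm10 were used, and the table that the authors deposited holds unnormalised UMI counts for 32285 genes and 4 hashtags over 10648 barcodes; no per-sample columns were left unused. The members and gene lists were chosen with earlier results of these data known.

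Barcodes with fewer than 200 genes or over 5% mitochondrial UMIs were left out. Litters were called with HTODemux (Seurat 5.3.0, positive quantile 0.99), which gave 7268 singlets, 736 barcodes with more than 1 hashtag and 2405 with none. Doublets within a litter share a hashtag and stay. Singlets were clustered with scanpy 1.11.5 (2000 variable genes, 20 components, 15 neighbours, Leiden resolution 0.5) without the members and listed genes, and clusters were named from marker genes. The rule for the Scin-led cluster took the mast or basophil-like cluster with the highest Scin level. It picked the Mcpt2- and H19-led cluster, so the Gzmb- and Scin-led cells were added after seeing the data: clusters with at least 100 Scin CPM were clustered again without Scin, and subclusters with at least 50 Scin CPM were kept.

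Counts were summed per litter and tested with edgeR 4.0.16 (TMM, filterByExpr, quasi-likelihood F-test, two-sided, Benjamini-Hochberg over all genes tested, threshold 0.05), with DESeq2 1.42.0 and RLE size factors among the alternatives. Each class with at least 20 singlets in every litter had its own fit. CPM in the text are UMIs scaled to a total of 1000000 UMIs of the same cells, and all litters lay between 18665955 and 23660294 UMIs. There were 2 litters per treatment, each pooled from several fetuses. The spread between litters that edgeR used for a gene was estimated with help from the other genes tested. The p-values and the SE therefore do not measure the litter spread of that gene alone. An SE can be smaller than the litters of the gene itself would give. In simulated data for the ILC2-like comparison 83.8% of genes changed by a log2 of 1 and 100% of those changed by 2 were recovered. For the Gzmb split the shares were 9.38% and 50.5%. The simulation gave all genes the same dispersion, so these shares need not hold for genes whose UMIs lie in few cells. Named genes were the 7 members, listed genes past the threshold, the 3 genes (5 for Gzmb) with the highest r, and, in the split, the 10 genes past the threshold with the largest fold change in each direction among those moved alike in all litters. One gene that this rule names is not reported here. All other genes in the text were chosen after their values were seen. Upstream sequences are from RefSeq (GRCm38.p6) and positions from GENCODE M21 (GRCm38). Same-numbered litters were not paired by the labels, and their deviations correlated from -0.17 to 0.18.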

Additional observations from a re-analysis of the deposited data

Results flagged for a closer look

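Several members had log2 fold changes of opposite sign in different sets of cells, with every DEX litter on one side of every PBS litter in each set. These differences between sets were not tested. Gzmc had a log2 fold change of 1.46 in the Gzmb- and Scin-led cells and -2.41 in mesenchymal-like cells, where 3 cells held all its UMIs. Prf1 had 1.04 in ILC2-like and -1.78 in mast or basophil-like cells. Nkg7 had 0.63 in ILC2-like cells and -0.0243 in the Gzmb- and Scin-led cells, and Ms4a4b had 1.08 and -0.73 in the same sets. For Nkg7 the value of -0.0243 was smaller in size than its standard error and changed sign under other settings, so it shows no movement. Lgals3 had 1.03 in ILC2-like cells and 0.33 in the Gzmb- and Scin-led cells, against -0.51 in mesenchymal-like cells. With 2 litters per treatment, litters that do not overlap were common (42.4% of genes in ILC2-like cells and 31.2% in mast or basophil-like cells).

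The 2405 barcodes without a hashtag were in no comparison but held members' UMIs above the limit that a count of 0 allows. The level was 17.9 CPM for Gzmb, 270 CPM for Lgals3, 4.78 CPM for Nkg7, 1.52 CPM for Gzmc, 0.356 CPM for Ms4a4b and 0.305 CPM for Gzma. In singlets Gzmb was at 375 CPM and Lgals3 at 408 CPM.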

How the results depend on the processing

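For members and named genes 323 of 390 values under other settings and 134 of 214 values with a litter left out kept their direction and side of the threshold. In ILC2-like cells, over 17 settings, Nkg7 passed in 17, Lgals3 in 16, Gzmb and Ms4a4b in 14 each and Gzma in 5, which describes genes chosen by this contrast; Gzmb did not pass in DESeq2, in cells not cycling or in cells with a Gata3 UMI, Lgals3 in DESeq2, and Ms4a4b in thinned cells, cells not cycling or cells without a mast or basophil UMI.

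The count of genes past the threshold in ILC2-like cells was 248, and was 115 in DESeq2, 525 without a filter on low counts, 75 in thinned cells, 165 in cells with a Gata3 UMI and 305 to 421 with a litter left out. In mast or basophil-like cells it was 0, against 6 in DESeq2, 6 without the filter and 0 to 44 with a litter left out. In the Mcpt2- and H19-led cluster it was 0, against 7 in DESeq2, 127 without the filter, 1 by the ratio rule for hashtags, which picks other cells, and 0 to 22 with a litter left out. In the Gzmb- and Scin-led cells it was 1, against 58 without the filter, 0 by the ratio rule, 3 at a 10% mitochondrial limit, 0 in thinned cells, 0 in cells not cycling and 21 to 52 with a litter left out. Over the other classes it was 10, against 407 without the filter and 71 to 213. For the DEX difference between sets it was 0, against 22 without the filter and 0 to 3, for the Mcpt2- and H19-led cluster, and 2, against 0 in DESeq2, 15 without the filter and 0 to 54, for the Gzmb- and Scin-led cells. For the Gzmb split it was 181, against 44 in DESeq2, 83 in cells without a mast or basophil UMI and 107 to 167. The causes were not tested.

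Litter numbers are no pairing here. With the litter number as a replicate block the counts were 430 in ILC2-like cells, 204 in the Mcpt2- and H19-led cluster, 0 in the Gzmb- and Scin-led cells and 33 over the other classes, and 36 in epithelial-like cells with the crossed block.

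The difference in Gzmb share of ILC2-like cells (1.74 points) was 2.38 without thinning, 0.641 at 1000 UMIs and 1.17 by the ratio rule. In the Mcpt2- and H19-led cluster (1.96) it was -0.524 by the ratio rule and -0.264 to 4.19 with a litter left out. In the Gzmb- and Scin-led cells (-0.408) it was 1.34 without thinning, 3.14 at 1000 UMIs, 0.841 by the ratio rule and -4.53 to 3.71.

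Some log2 fold changes that did not pass changed sign. Nkg7 in mast or basophil-like cells was -0.18 by the ratio rule, -0.0797 at the 10% mitochondrial limit and -0.12 at Leiden resolution 1.0; in the Mcpt2- and H19-led cluster it was -0.33, -0.56, -0.35 and, in thinned cells, -0.23; in the Gzmb- and Scin-led cells it was 0.033 at the 10% limit, 0.0451 in thinned cells and 0.0533 in cells not cycling. With a litter left out, the ranges were Gzmb from -0.18 to 0.76, Gzmc from -1.05 to 1.15, Nkg7 from -0.0779 to 0.19, Ms4a4b from -0.45 to 0.80 and Lgals3 from -0.20 to 0.27 in mast or basophil-like cells; Gzmb from -0.13 to 0.96, Nkg7 from -0.35 to 0.40 and Lgals3 from -0.11 to 0.22 in the Mcpt2- and H19-led cluster; Nkg7 from -0.0552 to 0.0134 in the Gzmb- and Scin-led cells; Gzmb from -9.58 to 8.72, Nkg7 from -2.17 to 1.20 and Lgals3 from -0.51 to 0.93 in endothelial-like cells; Nkg7 from -1.72 to 4.45 in epithelial-like cells; Gzmb from -1.20 to 0.0837 and Nkg7 from -0.79 to 0.13 in mesenchymal-like cells.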
